A study of Mus musculus with 12 samples.

Results

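The 6 hippocampal libraries compared here are those of the wild-type mice of the 2 Shank2 lines in the series. Shank2 encodes a scaffold protein of the postsynaptic density, the protein mesh under excitatory synapses. The exon 6-7 wild type is made up of WT778, WT809 and WT865, littermates of mice that lack Shank2 exons 6 and 7. The exon 7 wild type is made up of WT628, WT993 and WT999, littermates of mice that lack exon 7. None of the 6 carries either deletion. They were chosen by their genotype labels and are 6 of the 12 mice of the series, and the other 6 are the knockouts (KO776, KO777 and KO864 of the exon 6-7 line, KO969, KO990 and KO994 of the exon 7 line).

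The genetic background of all mice is given as C57BL/6J mixed with C57BL/6N. The labels give male sex and an age of 8 to 15 weeks for the mice used in behavioural experiments, and do not say which of the sequenced animals were among them. TRIZOL was used to take RNA from the hippocampi, and TruSeq libraries were built from its poly(A) fraction. No label gives a sequencing date, flow cell or batch, so that the line, its colony and any batch cannot be told apart. A difference between the wild types is therefore a difference between 2 sets of libraries, and p-values measure the spread between mice within a set. The comparison asks how far a nominally equal genotype gave equal hippocampal expression in both lines.

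The hippocampus relays cortical input through granule cells of the dentate gyrus to pyramidal cells of CA3 and CA1, under the control of several classes of GABA-releasing interneurons. Fast excitation runs through AMPA and NMDA receptors, tetramers of subunits that set conductance and kinetics, and fast inhibition through GABA-A receptors, pentamers that usually pair alpha, beta and gamma subunits. Each cell class has known marker transcripts, so that a bulk library can be read class by class. In bulk tissue, fewer cells of a class and less RNA per cell cannot be told apart.

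The deposited values are FPKM (fragments normalised to transcript length and library size), with a gene that is not listed taken as 0. Read totals are not part of these values, so that the depth is unknown and no counting error can be given. Libraries were scaled to a common median ratio, and levels below are scaled FPKM, given for the exon 6-7 wild type in the order WT778, WT809, WT865 and for the exon 7 wild type in the order WT628, WT993, WT999. Differences are exon 7 minus exon 6-7 wild type of log2(scaled FPKM + 1) values, a scale that makes changes of low genes look smaller, and ± after a difference is the standard error of the limma fit. Between 19811 and 20211 genes were listed per wild-type mouse. In the series 4 libraries, WT778 and WT628 among them and 1 in each group, stand apart: the gene ENSMUSG00000095746, which has no symbol, is not listed in them and has 218 to 435 FPKM in the other 8. Since each wild type holds 1 of them, the comparison is balanced for this split in number, but its effect need not be equal in both. Mitochondrially encoded transcripts made up 13.6% of the summed FPKM in WT628 against 10.3 and 10.9% in the other mice of its set. In WT778 they made up 6.72% against 6.22 and 6.81%. The difference in the mean share between the wild types was 5.03, and 4.08 without WT778 and WT628. Across genes the correlation of libraries was 0.971 to 0.989 within a wild type and 0.848 to 0.899 between them.

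Long transcripts were higher in the exon 7 wild type and short ones lower, in every mouse of it. The length slope, the change of a library's log2 deviation from the mean of the 12 libraries per 10 times of transcript length, was -0.87, -0.96 and -0.76 in the exon 6-7 wild type. In the exon 7 wild type it was 0.89, 0.77 and 0.85. The 2 sets lie far apart, at -0.86 ± 0.10 and 0.84 ± 0.06 (SD, n = 3 each). An exact two-sided permutation test gave p = 0.1, the smallest that 3 against 3 mice allow. In the decile of genes with the shortest transcripts, 117 to 1134 bases, the median difference was -0.93, and in the decile with the longest, from 6794 bases, it was 1.12. Each step between deciles went up, as the plot of deviations by length and GC content shows.

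**Figure D1:**
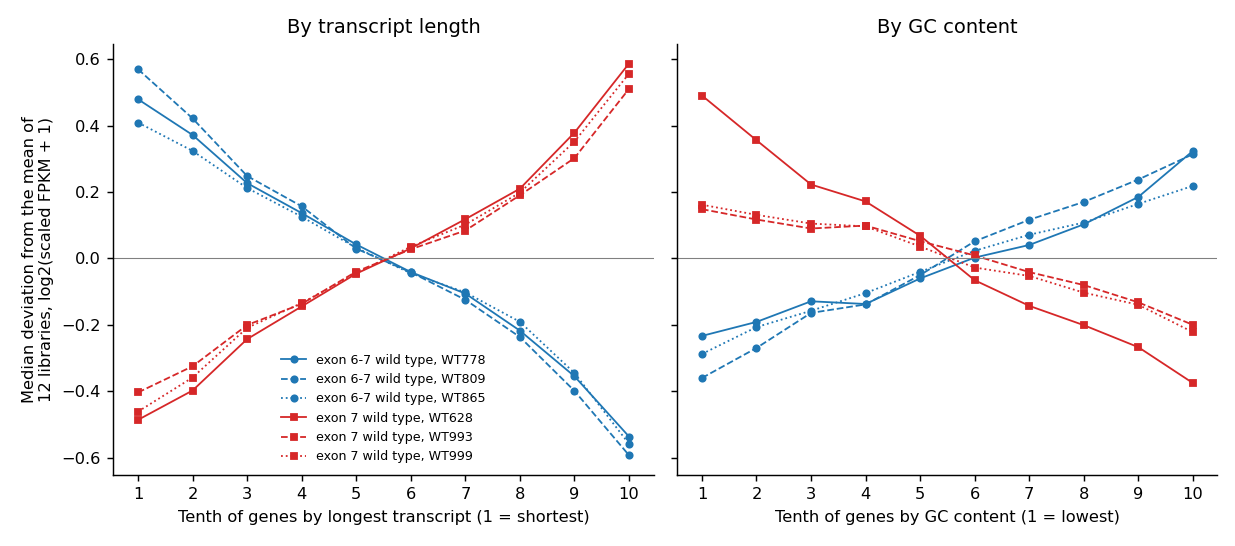
Median deviation of each of the 6 wild-type libraries from the mean of the 12 libraries, on the scale log2(scaled FPKM + 1), in deciles of genes by the length of the longest transcript (left) and by its GC content (right); each line is 1 mouse. The lines of the exon 6-7 wild type fall with length, from between 0.41 and 0.57 to between -0.59 and -0.54, those of the exon 7 wild type rise, from between -0.49 and -0.40 to between 0.51 and 0.59, and WT628 has the steepest line by GC content.

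GC content went the other way. In the decile of genes with the lowest GC content the median difference was 0.56 and in the decile with the highest it was -0.56. Across 14061 genes, Spearman's rho of the difference was 0.67 with length and -0.41 with GC content, as descriptions, since genes are not independent replicates. Within the exon 7 wild type the GC slope was not shared evenly: in the lowest decile the median deviation was 0.49 in WT628 and 0.15 and 0.16 in the other mice. What gave the length and GC trends was not tested, and they cannot be told apart from line and batch.

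As measured, that is with transcript length left as it is, 4835 of 14214 genes tested (34.0%) were higher and 4707 (33.1%) lower in the exon 7 wild type, by limma with an adjusted p under 0.05. That split depends on the scaling: of the genes called, 50.7% were higher as scaled, 42.2% with FPKM as deposited and 62.5% after rescaling to TPM, which moved the median of all genes to -0.14 and 0.18. Each library's trend on transcript length was then removed, so that a gene is judged against others of like length. On this scale 3384 of 14061 genes with a known length (24.1%) were higher and 3720 (26.5%) lower. Of the genes called, 47.4 to 48.5% were higher under the other scalings. That is no test of the scaling, because removing the trend also takes out a library's own level. FPKM as deposited and TPM differ from the scaled values mostly by a factor per library. Of these 7104 genes, 6898 had all 3 mice of 1 wild type above all 3 of the other with length removed, which the choice of called genes favours. As measured, 315 of the 7104 had been called in the opposite direction.

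Likeness had its own rule: a gene was called alike when the 90% interval of its like-length difference lay within 1.5 times in either direction. By this rule 6347 genes (45.1%) were alike, 1031 of which also passed the test of a difference, being small but steady. Of the genes alike, 3909 had been called different as measured. The transcript chosen for the length matters to some genes: in 1367 of the 14061 the longest annotated transcript is over 1.5 times as long as the principal one. With the principal transcript 6006 of the 7104 calls held with the same sign and 40 turned, and with GC content removed besides length 5521 held. Alike under all 3 were 4678 genes (33.3%), and the genes named alike below are among them unless stated. Where another length, GC content, quantile normalization or the loss of 1 mouse ends or turns the call or the likeness of a named gene, that is said beside it, apart from C1ql2, Gfap and Grm8, whose narrow calls were lost under most alternatives. A smaller or larger pseudocount and another filter on low values are not given gene by gene. For a gene both called and alike only the call was followed, apart from Gad1 and Gad2.

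In what follows, values before "against" are those of the exon 6-7 wild type and values after it those of the exon 7 wild type. For each gene called as measured, all mice of 1 set lay above all mice of the other unless overlap is stated. A call against like length can come without such a parting of levels, and then means that the gene did not move as transcripts of its length did. Members of a list that were not tested were not matched by symbol, did not reach a mean of 1 FPKM over all libraries or had no known length. The counts of each list stand beside 24.1% higher, 26.5% lower and 45.1% alike of all genes tested against like length. A list near these shares shows nothing of its own.

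The largest difference belonged to Rps3a1, the gene of a protein of the small ribosomal subunit (GRCm38, chromosome 3, 86137940 to 86142702, minus strand). It had 2.66, 1.71 and 2.85 scaled FPKM in the exon 6-7 wild type and 116, 128 and 136 in the exon 7 wild type, a level 52.7 times as high in the second. Its processed copies, intronless pseudogenes read from a reinserted messenger RNA, ran the other way. Rps3a3 (chromosome 13, 108670603 to 108671397, plus strand) had 180.3, 198 and 177 against 16.2, 20.9 and 15.03, and Rps3a2 (chromosome 14, 88123017 to 88123808, minus strand) had 38.5, 39.3 and 40.6 against 1.96, 4.07 and 3.27. The 3 transcripts are shown over the 60 bases in which the copies differ most from Rps3a1, from GENCODE M21 on GRCm38 and 5′ to 3′, because their likeness bears on how reads could be shared out among them. Capitals in a copy mark bases that differ from Rps3a1, and capitals in Rps3a1 mark bases at which either copy differs.
Rps3a1: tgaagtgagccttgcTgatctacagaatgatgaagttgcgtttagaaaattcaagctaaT
Rps3a2: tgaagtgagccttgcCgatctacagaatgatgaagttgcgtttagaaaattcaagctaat
Rps3a3: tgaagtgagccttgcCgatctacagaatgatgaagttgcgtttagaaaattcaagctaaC

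Over their whole length Rps3a2 shared 788 of 792 aligned bases with Rps3a1 and Rps3a3 shared 786 of 795. The values of the 3 are therefore uncertain one by one. Their sum was 221, 239 and 220.5 scaled FPKM in the exon 6-7 wild type and 134, 153 and 155 in the exon 7 wild type. Rps3a1 made up 1.07% ± 0.309 of it in the exon 6-7 wild type and 86.1% ± 2.25 in the exon 7 wild type (SD, n = 3 each). So the shares of the copies moved by far more than their sum. Against genes of like length Rps3a1 differed by 6.03 ± 0.14 (log2, ± SE, limma adjusted p = 2.21e-10), and Rps3a3 by -2.53 ± 0.12 (adjusted p = 8.33e-08). The sources used here do not state how reads were assigned among the copies.

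After Rps3a1 the largest increases in the exon 7 wild type, among named genes with separate mice, were Gabrb2, Hs6st3, Sstr4, Xkr4, Klhl11, Stxbp5l, Zkscan16, Gucy1a2 and Adnp. Gabrb2, the beta 2 subunit of GABA-A receptors (GRCm38, chromosome 11, 42419757 to 42629028, plus strand), had 1.75, 1.45 and 3.70 scaled FPKM in the exon 6-7 wild type and 57.7, 40.9 and 38.8 in the exon 7 wild type. All 3 mice of the exon 7 wild type were thus over 10 times the highest of the other set, and the like-length difference was 3.68 ± 0.23 (limma adjusted p = 4.01e-07). Stxbp5l, which encodes a tomosyn that restrains vesicle fusion, had 1.28, 1.18 and 1.78 against 28.0, 23.3 and 25.9. Gucy1a2, a subunit of the nitric oxide receptor guanylate cyclase, had 0.297, 0.287 and 0.409 against 11.3, 8.15 and 10.02. Sstr4, a somatostatin receptor, had 3.13, 1.96 and 4.30 against 27.7, 21.7 and 21.8. Hs6st3, an enzyme that sulfates heparan sulfate chains, had 0.634, 0.990 and 1.74 against 12.0, 19.5 and 17.7, and Adnp, a homeobox transcription factor, had 1.01, 0.667 and 0.686 against 17.3, 16.9 and 19.5. In each of these genes the lowest mouse of the exon 7 wild type stood several times above the highest mouse of the other set. The like-length differences of the genes other than Rps3a1 and Gabrb2 ran from 2.94 ± 0.22 to 3.59 ± 0.22. On the way to these 10 names, 7 clone names and pseudogenes were passed over.

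The largest decreases were those of Scand1, Ccdc85b, Rbm15b, Mrpl17, Ndufb7, Exosc5, Atp5g1, Taf10, Ebpl and Haus1, with 16 clone names and pseudogenes passed over. Scand1, a SCAN domain protein, had 101, 74.7 and 58.5 scaled FPKM in the exon 6-7 wild type and 3.13, 4.38 and 4.74 in the exon 7 wild type, 19.1 times as high in the first. Its like-length difference was -3.11 ± 0.28 (limma adjusted p = 4.21e-06). Ccdc85b had 206, 141 and 119 against 23.7, 22.4 and 22.6 and Taf10, a subunit of the transcription factor TFIID, 70.2, 80.8 and 74.3 against 11.7, 22.9 and 21.7. Several of the group serve mitochondria: Mrpl17, a protein of the mitochondrial ribosome, had 66.4, 89.1 and 81.7 against 13.8, 35.1 and 30.6, Ndufb7 of respiratory complex I 280.2, 317 and 246 against 53.8, 72.9 and 69.8, and Atp5g1 of the ATP synthase 145, 163 and 110.0 against 37.4, 35.2 and 38.0. Rbm15b, an RNA-binding protein, rests on uneven mice, with 6.77, 7.07 and 4.71 against 4.44, 0.120 and 0.281. For Ndufb7, Exosc5 and Haus1 the annotated longest transcript is much longer than the principal one, and with the latter the differences shrank to -1.23, -1.35 and -0.58. All 20 named genes of the 2 groups were also called in the same direction between the knockouts of the lines.

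**Figure D2:**
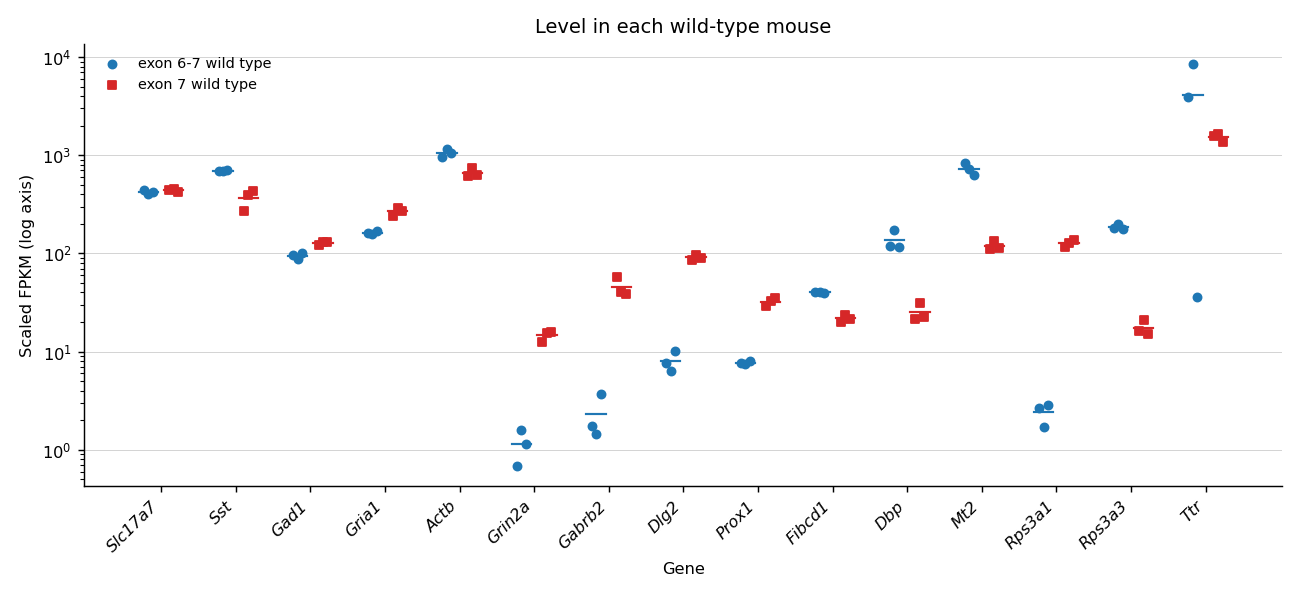
Scaled FPKM of 15 genes in each of the 6 wild-type mice, on a log axis; points are mice and bars are group means. The sets overlap for Slc17a7, they differ by less than 2 times for Gad1, Gria1 and Actb, they are far apart for Grin2a, Gabrb2, Dlg2, Mt2, Rps3a1 and Rps3a3, and Ttr ranges from 35.6 to 8495 among the exon 6-7 mice themselves.

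AMPA receptor subunits kept their order, Gria1, Gria2, Gria3 and Gria4, in both wild types. Gria1 was the highest of the 9 AMPA and kainate subunits in both wild types, with 161, 159 and 168 scaled FPKM in the exon 6-7 wild type and 239.7, 291 and 273 in the exon 7 wild type, and was alike against genes of like length (0.08 ± 0.09). Of the list 1 was higher, 2 lower and 5 alike of 9 tested. Gria4 and the kainate subunits Grik1 and Grik3 were alike too, though Grik3 was 2.44 times as high as measured. With quantile normalization Gria1 left the bound (0.67), and with the union of exons as the length Gria4 and Grik3 did (0.45 and 0.44). Gria3 was higher, with 31.2, 29.5 and 30.0 against 75.6, 65.6 and 67.4 (0.63 ± 0.09, limma adjusted p = 9.28e-05), and Grik5 lower, with 99.8, 94.4 and 82.6 against 53.6, 69.7 and 63.8 (-0.77 ± 0.13, adjusted p = 3.44e-04). Grik4 overlapped between the sets; it was called lower against like length (-0.41 ± 0.11), lay higher as measured (0.29) and was level with the union of exons (-0.01). Gria2, which makes AMPA receptors impermeable to calcium, had 65.9, 51.6 and 57.8 against 219.7, 143 and 153, and its like-length difference of 0.30 ± 0.17 was neither called nor alike. It was called higher with quantile normalization (0.75, adjusted p = 0.00850) and with a term for the 4 libraries that stand apart (0.30, adjusted p = 0.00252).

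NMDA receptor subunits changed places. Grin1, the obligatory subunit, led in both wild types with 155, 171 and 162 scaled FPKM in the exon 6-7 wild type and 147, 187 and 172 in the exon 7 wild type with overlap, and was alike against its longest transcript (-0.23 ± 0.12). With the union of exons, Grin1 was called lower (-0.69, limma adjusted p = 4.67e-04). The subunits that set kinetics did not keep their order. In the exon 6-7 wild type Grin2c and Grin2b followed, within each other's spread, and Grin2a was the lowest of 6. In the exon 7 wild type Grin2b came second, Grin2a and Grin2c next, again within each other's spread, and Grin2d last. Grin2a had 0.686, 1.60 and 1.16 against 12.5, 15.4 and 15.97 and Grin2b 12.9, 12.3 and 10.3 against 78.8, 64.9 and 67.02. Both have very long transcripts, of 14634 and 24060 bases, and their differences fell from 2.88 and 2.48 as measured to 1.48 ± 0.16 and 0.98 ± 0.12 against like length (limma adjusted p = 1.67e-05 and 3.37e-05). Grin2d and Grin2c overlapped between the sets; they were lower against like length, at -0.72 ± 0.17 and -0.41 ± 0.11, and with GC content removed too neither was called (-0.18 and 0.05), nor was Grin2c with the union of exons (-0.09). Of the list 2 were higher, 2 lower and 2 alike of 6 tested.

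**Figure D3:**
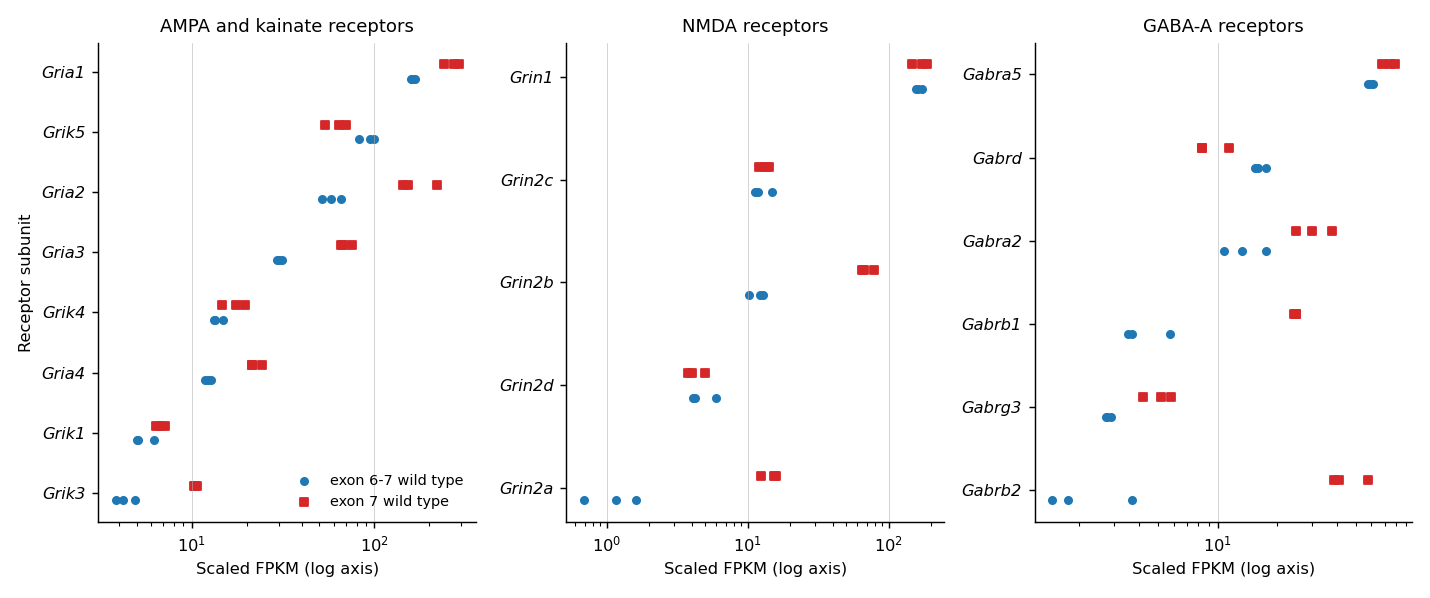
Scaled FPKM of the subunits of AMPA and kainate, NMDA and GABA-A receptors named in the text, in each wild-type mouse, on a log axis, with subunits in the order of the exon 6-7 wild type. Gria1 and Grin1 lead their families in both sets, and Gabrb2 and Grin2a, the lowest of their families in the exon 6-7 wild type, lie well to the right of those values in the exon 7 wild type.

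GABA-A receptor subunits were more often higher than lower against like length: 6 were higher, 2 lower and 2 alike of 12 tested, with 0 alike under all 3 corrections. Gabra5, a subunit of extrasynaptic receptors known for its abundance in the hippocampus, was the highest in the exon 6-7 wild type and had 59.5, 57.9 and 61.3 against 67.5, 74.1 and 79.2. Besides Gabrb2, which went from the lowest place of 12 to the fifth, Gabrb1 had 3.69, 3.54 and 5.77 against 24.3, 24.8 and 24.8 (0.92 ± 0.15, limma adjusted p = 4.21e-04). Gabrd, a subunit of tonic receptors of granule cells, was lower, with 15.4, 17.6 and 16.1 against 11.4, 8.37 and 8.33 (-0.55 ± 0.12, adjusted p = 0.00234). Gabrg3 was lower against like length (-0.51 ± 0.12) and higher as measured (0.67), and its call was lost with the union of exons (-0.23). Gabra2 had 13.3, 10.7 and 17.7 against 37.8, 24.9 and 29.9, with no overlap, and was neither called nor alike against like length (0.41 ± 0.19, adjusted p = 0.0891), though it was called without WT865 (0.58), without WT993 (0.54), with the union of exons (0.57) and with a term for the 4 libraries that stand apart (0.41). The median of the list was 0.45, against -0.01 for all genes. Its members are low in GC content (median 42.1%), and the decile of genes with such GC content had a median of 0.26. With GC content removed too the list median was 0.22.

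Metabotropic glutamate receptors, which act through G proteins, were higher or alike: 5 were higher, 0 lower and 3 alike of 7 tested. Under all 3 corrections 1 was alike. Grm5, the highest in both sets, had 22.6, 17.03 and 19.5 scaled FPKM in the exon 6-7 wild type and 79.4, 69.98 and 72.03 in the exon 7 wild type (0.83 ± 0.11, limma adjusted p = 4.97e-05). Grm7, a presynaptic receptor, had 13.9, 9.90 and 13.6 against 27.4, 27.9 and 28.0. Grm2 was alike, with 20.5, 16.9 and 19.2 against 22.7, 19.4 and 22.4 and overlap between the sets. The narrow call of Grm8, also higher and alike (0.27 ± 0.10), was lost under most alternatives.

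Postsynaptic scaffold genes ranged widely, and 7 were higher, 3 lower and 8 alike of 15 tested. Only 1 member was alike under all 3 corrections, beside 33.3% of all genes. Dlg2, the gene of the scaffold PSD-93, had 7.70, 6.30 and 10.2 scaled FPKM in the exon 6-7 wild type and 86.5, 96.0 and 90.7 in the exon 7 wild type, a like-length difference of 2.36 ± 0.13 (limma adjusted p = 1.54e-07). Dlgap2 and Homer1, which encode a guanylate kinase-associated protein and a scaffold of group I metabotropic receptors, were higher at 1.47 ± 0.16 and 1.28 ± 0.15. With its principal transcript Homer1 stood at 2.01. Homer1 had 13.9, 10.9 and 15.9 against 61.4, 50.6 and 52.3. Shank2 itself had 14.4, 13.8 and 14.9 scaled FPKM in the exon 6-7 wild type and 36.0, 42.4 and 44.1 in the exon 7 wild type. That is a difference of 1.44 as measured (adjusted p = 7.43e-07), and of 0.32 ± 0.13 against other transcripts of its length (adjusted p = 0.0504), where it counted as alike. Neither holds throughout: with GC content removed as well Shank2 was called higher (0.60, adjusted p = 8.62e-05), and so it was with the union of exons (0.61), with quantile normalization (0.43) and without WT628 (0.42, adjusted p = 0.0212). Without WT865 it was neither called nor alike (0.34). Its paralog Shank3, with 25.2, 22.2 and 23.7 against 41.1, 46.5 and 45.9, was alike at -0.06 ± 0.10, and Shank1, with 33.6, 33.6 and 37.1 against 98.0, 122 and 138, was higher at 0.55 ± 0.13. Dlg4, the gene of PSD-95 and the highest of the list in both sets, had 222, 242 and 253 against 204, 275 and 259.8, with overlap. It was called lower against its longest transcript (-0.75 ± 0.14) but not against its principal one (-0.12, adjusted p = 0.486) or with quantile normalization (-0.13).

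The vesicle release list was close to a common order in both sets, with a Spearman's rho of 0.98 between the levels of its 18 members, and 6 were higher, 4 lower and 10 alike of 18 tested. Vamp2, the vesicle SNARE, was alike (0.17 ± 0.11) with overlapping levels of 647, 624 and 660.2 scaled FPKM in the exon 6-7 wild type and 637, 515 and 533 in the exon 7 wild type, and Cplx1, a complexin, was alike at 0.10 ± 0.09. Unc13a, which primes vesicles, was 2.55 times as high as measured and alike against like length (0.10 ± 0.12). Syt1, the calcium sensor of fast release, was higher with 170.2, 186 and 214 against 422, 464 and 458 (0.80 ± 0.09, limma adjusted p = 3.14e-05), as were Pclo, Rims1 and Sv2b. With quantile normalization Vamp2 and Cplx1 left the bound upward (0.70 and 0.73). Snap25 had 861, 909 and 1082 against 950.0, 943 and 1034, with overlap; it was called lower against its longest transcript (-0.41 ± 0.10) and higher against its principal one (0.32), and was not called with quantile normalization (0.13).

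Markers of excitatory neurons were present in all 6 mice at high levels. Slc17a7, the vesicular glutamate transporter of these cells, was alike with 442, 401 and 421 scaled FPKM in the exon 6-7 wild type and 441, 454 and 424 in the exon 7 wild type (0.15 ± 0.09). With quantile normalization it left the bound (0.75, limma adjusted p = 4.30e-05). Of the list 2 were higher, 5 lower and 7 alike of 12 tested. Camk2a, the alpha subunit of the calcium/calmodulin kinase, had 457, 519 and 562 against 727, 943 and 944 and was alike at 0.28 ± 0.13, but called higher with quantile normalization (0.92, limma adjusted p = 2.57e-05), with GC content removed (0.45) and without WT628 (0.41). Without WT865 Camk2a was neither called nor alike (0.34). Nrgn, a calmodulin-binding protein of dendrites, was lower with 1600.4, 1555 and 1408 against 532, 658 and 721 (-0.63 ± 0.13, adjusted p = 0.00181; -0.13 and not called with quantile normalization), and Neurod6, a transcription factor of these neurons, was higher with 104, 106 and 117 against 139.9, 129.9 and 127 (0.67 ± 0.10, adjusted p = 1.40e-04).

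Markers of the hippocampal fields moved gene by gene and not field by field. For dentate granule cells 4 were higher, 1 lower and 7 alike of 12 tested. Prox1, the transcription factor that specifies them, was higher with 7.66, 7.41 and 8.05 scaled FPKM in the exon 6-7 wild type and 29.0, 33.1 and 34.9 in the exon 7 wild type (0.92 ± 0.09, limma adjusted p = 7.52e-06), and Stxbp6 was higher with 15.2, 13.7 and 21.4 against 56.8, 70.01 and 42.2 (1.33 ± 0.23). C1ql2, a secreted protein of mossy fibre synapses, had 41.9, 33.8 and 38.1 against 20.7, 22.3 and 18.9, and its narrow call (-0.40 ± 0.15, adjusted p = 0.0461) was lost under most alternatives and at -0.01 with GC content removed. Glis3, Dock10 and Pdzd2 were alike, at 0.16 ± 0.10, 0.25 ± 0.11 and 0.00 ± 0.17, and with the union of exons Glis3 was called higher (0.46). In CA1 pyramidal cells 2 were higher, 3 lower and 5 alike of 8 tested. Fibcd1 was lower with 40.5, 40.2 and 39.8 against 20.1, 23.7 and 21.7 (-1.27 ± 0.12, adjusted p = 5.24e-06) and Gpr161 higher with 3.12, 2.06 and 3.55 against 14.0, 17.8 and 19.4 (1.35 ± 0.15, adjusted p = 2.02e-05), while Mpped1 was alike with 68.9, 68.4 and 71.4 against 77.7, 74.04 and 71.5. Wfs1, a CA1 marker of the endoplasmic reticulum, had 60.8, 65.9 and 63.1 against 51.5, 59.9 and 53.1 and was both called lower and alike, at -0.32 ± 0.08, and it was no longer called with GC content removed (-0.01), the union of exons (-0.08) or quantile normalization (-0.06). In CA2 and CA3 cells 1 was higher, 4 lower and 5 alike of 11 tested. Pcp4, a calmodulin regulator of CA2, was alike at 0.10 ± 0.12, though its short transcript was 1.66 times as high in the exon 6-7 wild type as measured. With quantile normalization Pcp4 left the bound (0.70). Rgs14, which limits plasticity in CA2, was lower with 43.4, 46.9 and 48.0 against 24.0, 29.6 and 25.8 (-0.47 ± 0.10, adjusted p = 0.00183).

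Of interneuron markers 72.2% were alike, against 45.1% of all genes, and 5 were higher, 5 lower and 13 alike of 18 tested. Gad1 and Gad2, the enzymes that make GABA, had 97.2, 87.6 and 100.4 against 122, 132 and 132 and 20.8, 17.8 and 22.5 against 43.5, 40.6 and 42.6. Both were called higher and both were alike, at 0.37 ± 0.09 and 0.35 ± 0.10, a call lost for Gad1 with the union of exons (-0.10) and for Gad2 without WT809 (0.28) and with GC content removed (0.21). Their likeness did not hold throughout either, since alternatives that removed length reached 0.77 for Gad1 and 0.73 for Gad2, outside the bound. The peptide genes Sst and Npy have short transcripts and were 1.92 and 1.64 times as high in the exon 6-7 wild type as measured, with Sst at 689, 692 and 711 against 271, 391 and 429. Against like length they were alike, at -0.13 ± 0.16 and 0.11 ± 0.21. Sst left the bound with quantile normalization (0.43), and Npy left it there (0.48), without WT628 (0.33) and without WT865 (0.23). Pvalb, the marker of fast-spiking cells, was lower with 60.8, 66.5 and 62.5 against 27.3, 17.03 and 17.7 (-0.81 ± 0.16, limma adjusted p = 0.00113), and Reln, a secreted glycoprotein with a transcript of 11699 bases, had overlapping levels, 22.9, 18.6 and 16.5 against 16.96, 13.5 and 16.5, and was lower against like length (-1.57 ± 0.16, adjusted p = 1.25e-05). Erbb4, the neuregulin receptor, was higher with 2.76, 2.37 and 2.49 against 14.7, 12.6 and 11.8 (0.68 ± 0.14). Calb2 and Lamp5 were lower, at -0.53 ± 0.11 and -0.50 ± 0.08.

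Of markers of immature neurons, which mark adult neurogenesis, 1 was higher, 2 lower and 3 alike of 8 tested, and 3 of the 11 of the list were not tested. Neurod1 was higher with 10.4, 7.52 and 9.77 against 14.5, 16.7 and 16.5 (0.93 ± 0.12, limma adjusted p = 4.51e-05). Dcx, a microtubule protein of migrating young neurons, had 2.59, 2.65 and 2.01 against 9.95, 9.31 and 6.82. It was not called against its longest transcript of 9074 bases (0.37 ± 0.17) and was called higher against its principal one of 1333 bases (2.12, adjusted p = 2.59e-06). Dcx was also called higher with the union of exons (0.54), without WT999 (0.52) and with a term for the 4 libraries that stand apart (0.37). Stmn1, which destabilizes microtubules, was alike at -0.11 ± 0.13 and called higher with quantile normalization (0.38, adjusted p = 0.0268).

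Of astrocyte genes 4 were higher, 6 lower and 5 alike of 16 tested, beside 24.1% higher, 26.5% lower and 45.1% alike of all genes. The glutamate transporters Slc1a2 and Slc1a3 were alike, at 0.17 ± 0.08 and 0.23 ± 0.10, although Slc1a2 had 117, 125 and 129 against 353, 326 and 348 as measured. Aldh1l1, an enzyme of folate metabolism that marks the class, was lower with 27.9, 37.0 and 35.3 against 13.9, 15.8 and 10.3 (-1.51 ± 0.16, limma adjusted p = 1.35e-05), and S100b and Ndrg2 stood at -0.61 ± 0.12 and -0.61 ± 0.11. With quantile normalization the call of Ndrg2 was lost (-0.01), and Slc1a2 and Slc1a3 left the bound (0.69 and 0.74), as Slc1a2 did with the union of exons (0.49). Aqp4, the water channel of their endfeet, was higher with 14.2, 12.0 and 22.8 against 59.7, 34.5 and 43.8 (0.95 ± 0.22, adjusted p = 0.00363), and Glul, which makes glutamine, was higher at 0.50 ± 0.11. Gfap, the intermediate filament, had 177, 169 and 202 against 112, 108 and 141; its narrow call at -0.38 ± 0.15 was lost under most alternatives and turned with quantile normalization (0.10).

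Myelin genes had a list median of -0.34, and 2 were higher, 8 lower and 5 alike of 16 tested, with no member alike under all 3 corrections. With quantile normalization the list median was 0.00. Cnp and Mog, of the myelin sheath, had 299, 396 and 402 against 169, 201 and 167 and 113, 149.9 and 144 against 57.5, 65.9 and 55.0 (-0.88 ± 0.12 and -0.62 ± 0.11, limma adjusted p = 8.83e-05 and 5.19e-04). With quantile normalization Cnp stood at -0.28 and was not called. Ugt8a, which makes the main myelin lipid, was higher with 23.1, 22.2 and 29.6 against 58.2, 41.5 and 41.9 (0.77 ± 0.18). Mbp, with 2607, 2765 and 3337 against 2363, 3005 and 2775 and overlap, was called lower against its longest transcript (-0.53 ± 0.13) and higher against its principal one (0.77), and was not called with quantile normalization (-0.19). The line difference of the list in the knockouts had a median of -0.22, with 4 members called lower. Among precursors of these cells 2 were higher, 3 lower and 4 alike of 8 tested. Pdgfra, the receptor that defines them, had 6.21, 5.93 and 7.22 against 14.7, 16.9 and 16.97 and was both called higher and alike (0.34 ± 0.10). Its call was lost with quantile normalization (0.27) and without WT778, WT809, WT993 or WT999 (0.32, 0.30, 0.30 and 0.31). Tnr, a matrix glycoprotein of perineuronal nets, was higher with 1.33, 1.90 and 2.77 against 23.9, 33.5 and 33.2 (2.08 ± 0.19, adjusted p = 4.21e-06).

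Of microglial genes 2 were higher, 6 lower and 9 alike of 18 tested. Cx3cr1, the fractalkine receptor, was alike with overlapping levels of 9.65, 12.1 and 14.2 against 16.3, 16.6 and 13.8 (0.02 ± 0.15), as was Ctss at 0.10 ± 0.13. With the union of exons Cx3cr1 left the bound (0.33). Aif1, which encodes the marker Iba1, was lower with 8.46, 11.4 and 11.6 against 2.43, 2.95 and 2.03 (-0.92 ± 0.17, limma adjusted p = 6.70e-04), and Fcrls higher with 6.10, 6.59 and 7.31 against 10.5, 11.9 and 11.2 (1.02 ± 0.12). In endothelial cells and pericytes 6 were higher, 1 lower and 10 alike of 20 tested. Cdh5, the cadherin of vessel walls, was higher with 1.96, 2.63 and 2.05 against 4.76, 7.27 and 6.17 (0.94 ± 0.15, adjusted p = 2.28e-04), and Cldn5, a tight junction protein, was alike at 0.05 ± 0.18 but not with GC content removed (0.34).

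Markers of tissue next to the hippocampus differed among the mice of a set. Choroid plexus, the tissue that secretes cerebrospinal fluid, was low in WT865. Ttr, its transport protein for thyroid hormone, had 3934, 8495 and 35.6 scaled FPKM in the exon 6-7 wild type and 1587, 1658 and 1359 in the exon 7 wild type. WT865 was thus far below the other 5, and the 13 markers had a median deviation of -2.52 from the 12-library mean there, against -0.57 and 0.33 in the other mice of its set and 0.02 to 0.05 in the exon 7 wild type. Of the list 3 were higher, 0 lower and 0 alike of 13 tested. The list median was 0.95 with WT865 and 0.19 without it, and Ttr turned from 1.24 ± 1.40 to -1.16 (limma adjusted p = 0.00301 without WT865). The genes called were Prlr, Otx2 and Sostdc1, and Prlr alone kept its call under these alternatives. Sostdc1 was not called without WT865 (0.51, limma adjusted p = 0.0704), without WT628, WT993 or WT999 (1.24, 1.21 and 1.28), with quantile normalization (1.08), with the principal transcript (1.14) or with GC content removed (1.01). Otx2 was not called without WT628 or WT999 (1.06 and 1.14) or with the union of exons (0.95), and neither was called in the 6 wild-type libraries alone (1.16 for Otx2 and 1.24 for Sostdc1). Ependymal markers gave 0 higher and 1 lower of 6 (Rarres2, 18.9, 22.3 and 21.2 against 5.23, 5.69 and 3.80). For meninges and fibroblasts 1 was higher, 2 lower and 4 alike of 14 tested. Of 5 blood genes limma called 0, with 0 at an unadjusted p under 0.05, and none was alike, and Hba-a1, an alpha globin, had 115, 222 and 211 against 33.6, 104 and 74.05 and was called lower without WT993 (-0.93). The part of such tissue in other results was not tested.

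Markers of regions that border the hippocampus gave 3 calls in each of 3 lists, beside 24.1% higher and 26.5% lower of all genes. For thalamus and habenula 3 were higher, 0 lower and 3 alike of 7 tested, with Tcf7l2 at 1.38, 1.41 and 1.81 against 4.02, 3.82 and 3.74 (0.85 ± 0.14, not called with the union of exons at 0.29). For striatum 2 were higher, 1 lower and 3 alike of 8 tested; Drd1 was alike and Pde10a, a phosphodiesterase, was higher with 4.32, 3.999 and 4.47 against 19.1, 22.2 and 21.8 (1.07 ± 0.09). For neocortex and subiculum 2 were higher, 1 lower and 1 alike of 8 tested, with Nr4a2 higher at 0.95 ± 0.15 and Rorb, a cortical layer marker, lower against like length at -0.76 ± 0.14 but higher as measured (0.38). Levels were low for the striatal receptor gene Drd1, with 1.44, 0.987 and 1.53 against 1.49, 0.968 and 1.503, and Rorb had 1.19, 1.55 and 1.695 against 2.65, 2.20 and 1.83. With length removed, the median deviation of the thalamus list from the mean of the 12 libraries ran from -0.33 to -0.11 in the exon 6-7 wild type and from 0.09 to 0.21 in the exon 7 wild type, and that of the neocortex list from -0.21 to 0.02 and from 0.14 to 0.26. For both lists the sets did not overlap, and for the striatum list they did. Such a parting is not particular to these lists, since it was also seen for GABA-A and metabotropic glutamate receptors and for ribosomal and oxidative phosphorylation genes. With GC content removed too, the list median went from 0.52 to 0.32 for thalamus and habenula and from 0.34 to 0.55 for neocortex and subiculum.

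Genes that follow recent activity or the hour of day were partly alike. Of immediate early genes 2 were higher, 1 lower and 4 alike of 11 tested. Their list median was 0.21 between the wild types and -0.17 between the knockouts, where 0 members were called higher and 1 lower. Ier2 and Btg2 were alike at -0.04 ± 0.19 and -0.03 ± 0.13. Egr1, a transcription factor induced by activity, had 46.4, 36.6 and 44.7 scaled FPKM in the exon 6-7 wild type and 70.2, 60.3 and 56.8 in the exon 7 wild type; it was alike at 0.21 ± 0.14 and called higher with GC content removed (0.52), the union of exons (0.51) or quantile normalization (0.45). Fos was higher with 3.18, 3.14 and 3.45 against 9.07, 7.59 and 9.71 (1.60 ± 0.25, limma adjusted p = 2.38e-04), and Fosb with 0.698, 0.732 and 0.941 against 2.25, 1.97 and 2.28 (0.71 ± 0.17). Among clock genes 3 were higher, 3 lower and 7 alike of 14 tested. Nr1d1 and Cry1, repressors of the cycle, were alike, and Nr1d1 had 36.2, 40.2 and 37.2 against 34.4, 35.7 and 31.7. Dbp, an output gene of the clock with a strong daily rhythm, was lower with 119.8, 173 and 115 against 21.7, 31.6 and 22.5, 5.39 times as high in the exon 6-7 wild type (-1.88 ± 0.23, adjusted p = 4.14e-05). Clock and Arntl, the activators, were higher at 1.10 ± 0.12 and 0.81 ± 0.16, and Per3 was lower against like length at -0.80 ± 0.22, with overlapping levels. The hour of tissue collection is not given in the labels.

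Of genes that respond to glucocorticoids 3 were higher, 3 lower and 3 alike of 10 tested. The metallothioneins Mt2 and Mt1, which bind zinc and copper, were lower with 839, 730.1 and 627 against 111, 133 and 114 and 1102, 1101 and 860.1 against 248, 374 and 309.7 (-1.77 ± 0.11 and -0.97 ± 0.15, limma adjusted p = 4.15e-07 and 1.84e-04). Zbtb16 and Sgk1, induced by the hormone, were higher with 3.29, 3.27 and 4.46 against 13.4, 15.2 and 22.1 and 38.6, 32.1 and 22.99 against 46.5, 53.7 and 71.5 (1.40 ± 0.17 and 0.95 ± 0.18). Tsc22d3, induced too, was lower at -0.78 ± 0.25, a call lost with the principal transcript (-0.60), with quantile normalization (-0.62), without WT778 (-0.59) and without WT993 (-0.61). Members of this list thus went both ways. Of chaperones 6 were higher, 0 lower and 6 alike of 17 tested, with Pdia4, a disulfide isomerase, at 17.2, 18.1 and 20.1 against 32.2, 30.1 and 26.3 (0.95 ± 0.11) and Dnajb1 alike at -0.01 ± 0.12. The median of the chaperone list was 0.36 between the wild types and -0.03 between the knockouts, where 2 members were called higher and 0 lower. In the interferon response 1 was higher, 2 lower and 7 alike of 12 tested, and the signal transducer Stat2 was alike at 0.00 ± 0.11.

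Short, abundant housekeeping transcripts were mostly lower as measured, and less uniformly so against like length. Of 78 genes of cytosolic ribosomal proteins 75 were lower as measured and 0 higher, with a median of -1.17. Against like length 1 was higher, 52 lower and 26 alike of 78 tested, with a median of -0.49 that came to -0.21 with quantile normalization. Rps7, of the small subunit, had 30.4, 31.9 and 32.2 against 17.6, 16.3 and 18.8 and was alike at -0.02 ± 0.11. Such genes have many pseudogene copies, and the likeness in sequence of those of Rps3a1 was given above. Whether reads were shared among such copies was not tested. Of the nuclear subunits of oxidative phosphorylation 67 of 70 were lower as measured, and against like length 1 was higher, 55 lower and 22 alike of 70 tested (median -0.54, and -0.08 with quantile normalization). Ndufa2 of complex I had 270.2, 278 and 217 against 43.6, 40.8 and 45.4 (-1.69 ± 0.10, adjusted p = 3.07e-07) and Uqcrb of complex III was alike at 0.14 ± 0.10, though it left the bound with quantile normalization (0.61).

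Mitochondrially encoded transcripts, which make the core subunits of the same complexes, went the other way. They made up 6.72, 6.22 and 6.81% of the summed FPKM in the exon 6-7 wild type and 13.6, 10.3 and 10.9% in the exon 7 wild type, with WT628 the highest. The means were 6.58% ± 0.321 and 11.6% ± 1.78 (SD, n = 3 each, exact permutation p = 0.1, the smallest possible). Of the 13 genes 7 were higher, 1 lower and 2 alike of 13 tested, with 0 alike under all 3 corrections. As measured 5 were higher and 3 lower. The list is low in GC content (median 37.1%), and its median of 1.18 came to 0.68 with GC content removed too. mt-Nd5 had 793, 796 and 1005 scaled FPKM in the exon 6-7 wild type and 4133, 3369 and 3562 in the exon 7 wild type (2.60 ± 0.14, limma adjusted p = 1.70e-07) and mt-Cytb 5271, 5867 and 6431 against 9756, 9183 and 9642 (1.44 ± 0.10). mt-Co2 was lower with 28.8, 25.6 and 18.2 against 7.25, 8.52 and 4.91 (-0.84 ± 0.19). Its neighbour mt-Co1, from the same genome, had 7315, 6477 and 7434 against 16420.2, 11927 and 13046 and was higher (1.56 ± 0.17). The level of mt-Co2 was thus far below that of mt-Co1 in every mouse. Whether this reflects how reads were assigned was not tested, so that the difference of mt-Co2 is uncertain.

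Long neuronal genes were grouped for their long transcripts, so that a fall of their median towards 0 is built into the removal of length. The decile of all genes with the longest transcripts went from 1.12 to 0.03. Of 17 genes with transcripts up to 27908 bases 15 were higher and 0 lower as measured, with a median of 1.197. Against like length the median was -0.08 (0.10 with quantile normalization) and 6 were higher, 4 lower and 6 alike of 17 tested. The sodium channel gene Scn8a had 24.2, 24.7 and 21.9 against 55.2, 55.2 and 55.6 and was alike at -0.08 ± 0.08, and Ank2 was alike at -0.26 ± 0.12, though called lower with the union of exons (-0.47). Cacna1e, the pore of R-type calcium channels, had 3.49, 3.40 and 4.201 against 48.9, 49.2 and 50.1 and stayed far from genes of its length (2.02 ± 0.09, limma adjusted p = 8.33e-08). Lrp1, a lipoprotein receptor, had 81.3, 96.9 and 77.8 against 51.2, 76.3 and 73.9 and was lower against like length (-1.76 ± 0.18, adjusted p = 8.72e-06). Of long noncoding RNAs of neurons and nuclei 0 were higher, 6 lower and 2 alike of 7 tested, with a median of -0.60 that came to 0.02 with quantile normalization. Neat1, the core of paraspeckles, had overlapping levels of 48.0, 43.7 and 28.1 against 34.2, 22.1 and 20.7 (-2.10 ± 0.23) and the imprinted Meg3 939, 974 and 764 against 1097, 1157 and 1145 (-1.04 ± 0.11), which was higher as measured (0.35, adjusted p = 0.0326).

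Common reference genes were not all alike: 0 were higher, 4 lower and 6 alike of 12 tested. Actb and Sdha were alike at -0.19 ± 0.09 and 0.02 ± 0.12, and Sdha had 186, 186 and 186 against 200.5, 160.2 and 153, with overlap. Actb was lower as measured (-0.66). Against like length it stayed within the bound but was called under several alternatives. Among these it was lower with the principal transcript (-0.31) and the union of exons (-0.28), and higher with quantile normalization (0.28). With quantile normalization Sdha left the bound (0.54). Gapdh had overlapping levels of 421, 414 and 478 against 383, 471 and 466, alike against its longest transcript (0.04 ± 0.11) and higher against its principal one (0.59, limma adjusted p = 7.46e-04) or with quantile normalization (0.65). Pgk1 was lower with 39.6, 43.8 and 37.8 against 22.1, 15.9 and 18.1 (-0.57 ± 0.13). Of replication-dependent histones, whose messengers mostly lack the poly(A) tail that the protocol selects, 11 of 67 were tested and 1 was higher, 2 lower and 4 alike. Y-linked genes were listed in every mouse and 3 were higher, 0 lower and 1 alike of 4 tested, and Eif2s3y had overlapping levels of 59.7, 72.9 and 55.9 against 68.8, 58.2 and 54.7, alike at 0.03 ± 0.16 though called lower with GC content removed (-0.37) and outside the bound with the principal transcript (0.34) or quantile normalization (0.29); Ddx3y and Uty were higher, at 1.02 ± 0.24 and 0.86 ± 0.14. Of genes reported to differ between the C57BL/6J and C57BL/6N substrains 2 were higher, 1 lower and 1 alike of 5 tested. Nnt, which C57BL/6J carries in a truncated form, had overlapping levels of 6.59, 6.36 and 5.29 against 8.64, 5.99 and 6.79 and was alike (0.17 ± 0.16), but not without WT993 (0.28). Ide was higher with 7.96, 8.08 and 7.57 against 18.9, 27.6 and 15.8 (0.78 ± 0.21, adjusted p = 0.00787), Cyfip2 was higher at 0.47 ± 0.08, Fgfbp3 was lower at -0.70 ± 0.21 but not called without WT778, WT628 or WT999 (-0.61, -0.63 and -0.54), and Wdfy1, with 7.37, 6.75 and 3.82 against 5.93, 5.10 and 4.88, was neither called nor alike (-0.47 ± 0.33).

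**Figure D4:**
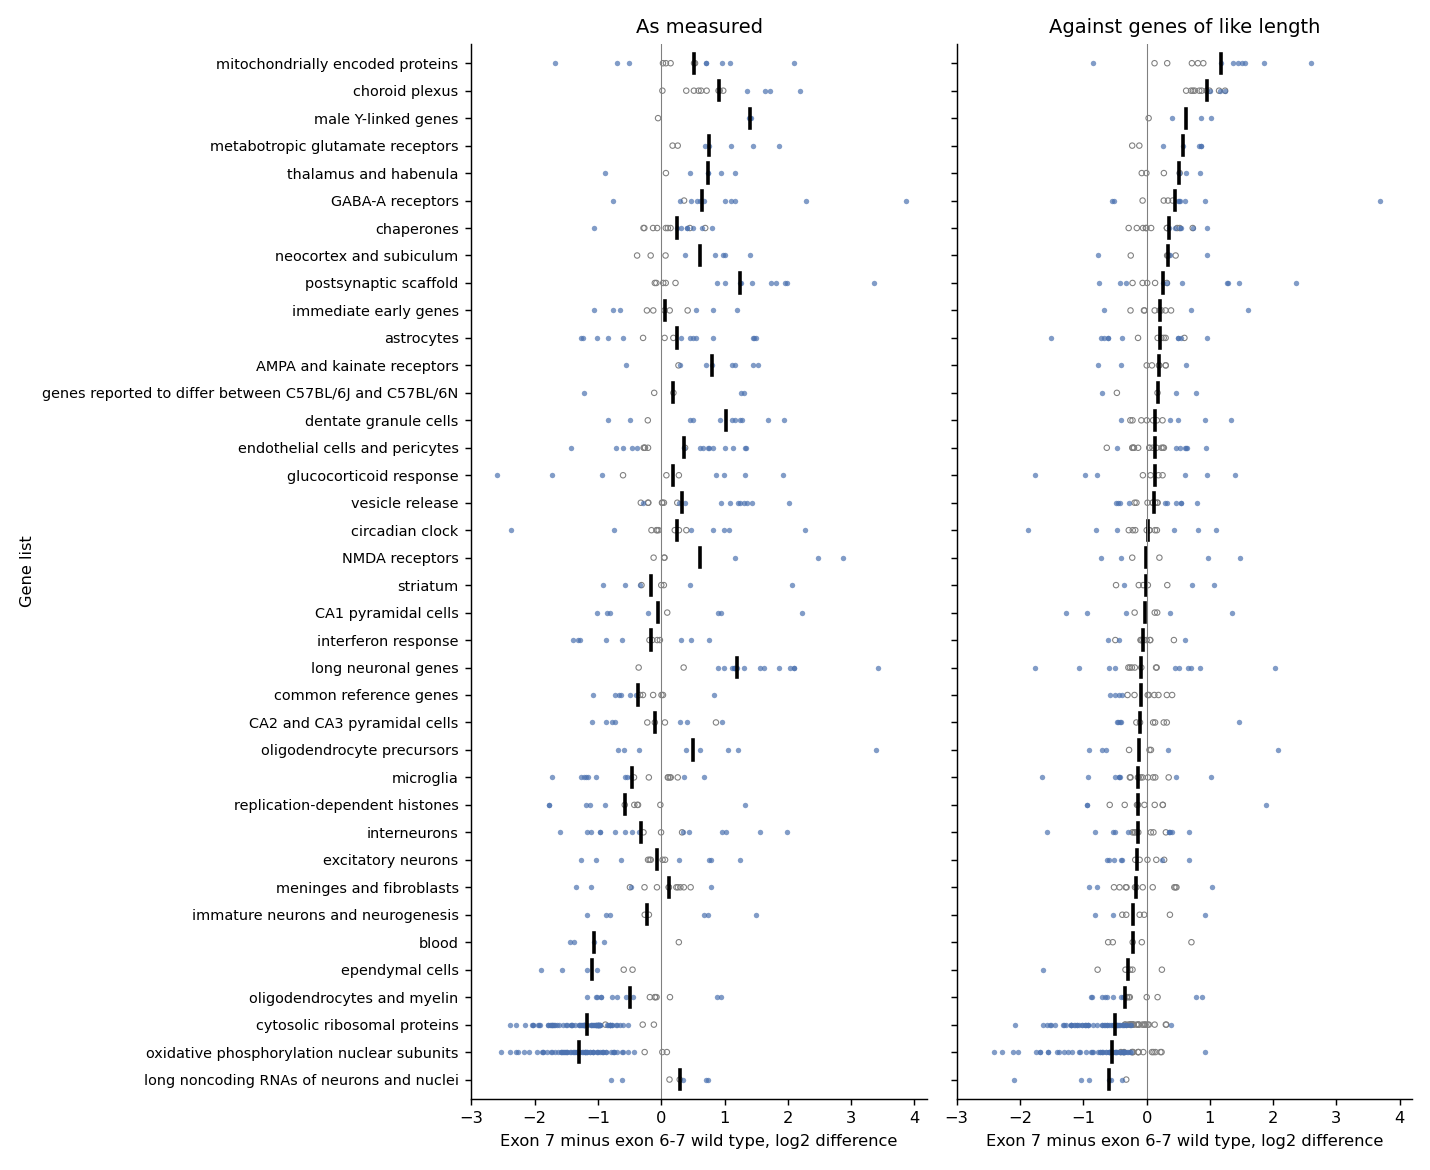
Exon 7 minus exon 6-7 wild type as log2 difference of each member of 38 gene lists, as measured (left) and against genes of like length (right); filled points passed limma with an adjusted p under 0.05, open points did not, and black bars are list medians. The medians of long neuronal genes and of NMDA receptors come close to 0 on the right, which the removal of length favours for long transcripts. Those of ribosomal and oxidative phosphorylation genes stay below 0.

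By kind of gene, processed pseudogenes were short, with a median transcript of 557 bases, and lower as measured (median -0.49). Against like length they were more often higher than lower, 220 and 120 of 571, and 18.6% were alike. For antisense RNAs 81 were higher and 35 lower of 204, with 20.1% alike. Of protein-coding genes 22.8% were higher, 27.2% lower and 47.3% alike. Low genes change less on the scale used, while the trend of their length is removed in full. With no filter on low values 58.1% of all genes called against like length were higher, against 47.6% with the filter. The part of low levels in the counts of these classes was not tested. The sources used here do not state whether counting used strand, so that an antisense RNA and its partner gene cannot be told apart.

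Features alike in both wild types had members in most classes. Of the 43 genes named here as alike and not called different, 15 stayed within the bound under every alternative that removed length: the synaptic genes Unc13a, Shank3, Grik1 and Grm2, the field markers Mpped1 and Pdzd2, the sodium channel gene Scn8a, the microglial gene Ctss, the clock genes Nr1d1 and Cry1, and Stat2, Btg2, Dnajb1, Drd1 and Actb. The others, among them Slc17a7, Gria1, Grin1, Sst, Vamp2 and Cx3cr1, left it under at least 1 alternative. Abundant ones left it upward with quantile normalization, which gives all libraries the same distribution of values, such as Vamp2 at 0.70. Staying within the bound does not exclude a call, and Actb was called lower or higher under several alternatives. Of the 113 genes named here as different, 90 kept their call and direction under every alternative that removed length. Of the 100 genes with the highest mean in each wild type, 67 were the same. Few genes were seen in 1 set alone: 105 were listed in all 3 mice of the exon 6-7 wild type and none of the exon 7 wild type, 21 of them with a mean of at least 1 FPKM. The reverse held for 136 genes, 9 with such a mean.

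The same line difference was then read in the 6 knockout mice, which the wild-type comparison does not use as values but which share its estimate of spread. Between the knockouts 2994 genes (21.3%) were higher and 3223 (22.9%) lower in the exon 7 line against like length. Of the 7104 genes called between the wild types, 7034 had the same sign between the knockouts, and 5551 were called there with that sign, 78.1% of the wild-type calls and 89.3% of the knockout calls. Gabrb2 had 3.10, 2.29 and 3.67 scaled FPKM in KO776, KO777 and KO864 and 47.0, 38.4 and 35.1 in KO969, KO990 and KO994, a difference of 3.21. Dlg2, Grin2a, Prox1, Fibcd1 and Dbp differed by 2.02, 1.504, 0.97, -1.41 and -1.71, each called (limma adjusted p = 8.20e-07, 2.36e-05, 8.36e-06, 4.52e-06 and 1.17e-04). Of the genes called between the wild types and named above, C1ql2, Fgfbp3, Fosb, Gfap, Grik4, Grm8, Mbp, Otx2, Prlr, Rgs14, Sgk1, Sostdc1 and Wfs1 were not called between the knockouts, and for none of them was the difference between the comparisons called. Fos, called between the wild types, was not called between the knockouts (0.38, adjusted p = 0.236), and its difference between the comparisons was not called either (adjusted p = 0.9999).

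A test of the line difference in knockouts against that in wild types called 1 gene of 14061 (0.00711%), Rps3a1, and 434 had an unadjusted p under 0.05. Rps3a1 had 105, 113 and 122 in the exon 6-7 knockouts and 112, 123 and 125 in the exon 7 knockouts, so that the line difference was 0.75 there against 6.03 ± 0.14 in the wild types (difference -5.27 ± 0.20, limma adjusted p = 6.48e-08). It made up 47.9% ± 1.46 of the 3 copies in the exon 6-7 knockouts (SD, n = 3), between the shares of the 2 wild types. Shank2 differed by 1.47 between the knockouts and by 0.32 ± 0.13 between the wild types, and that contrast did not pass (1.15 ± 0.18, adjusted p = 0.229). The plot of both line differences shows these genes against all others.

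**Figure D5:**
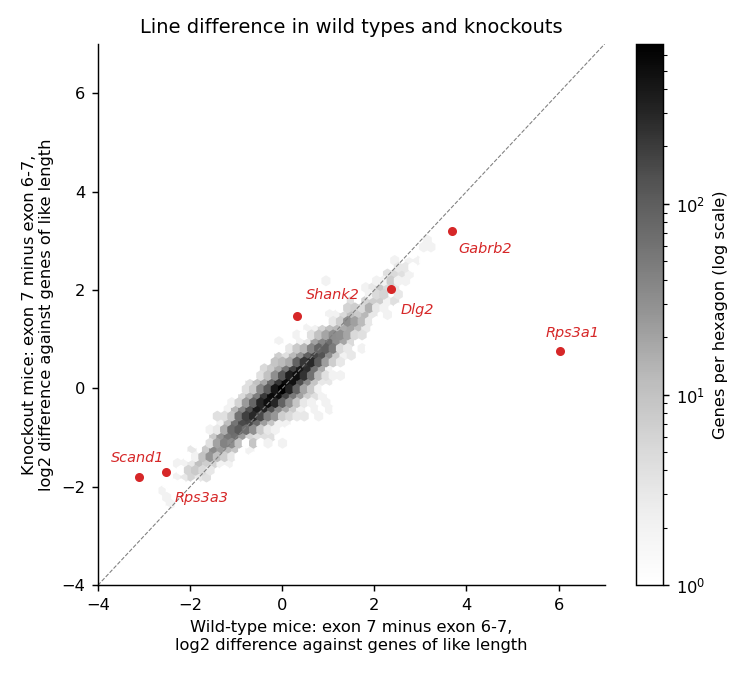
Log2 difference of the exon 7 line minus the exon 6-7 line against genes of like length, in wild-type mice (x axis) and in knockout mice (y axis), for 14061 genes binned in hexagons shaded by number on a log scale; the dashed line marks equal values. Most genes lie near the dashed line, and Rps3a1 lies far to its right.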

How the data were processed

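Poly(A) RNA sequencing of the hippocampus gave 1 library per mouse, 3 mice in each of 4 groups. The authors deposited, for each mouse, a table of FPKM per gene. Per the submitters' processing notes CASAVA, GSNAP, Cufflinks and mm10 were used, with no role or order stated, and per the file headers the gene identifiers are of Ensembl release 74. No counts are part of these tables, so that the depth is unknown.

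Genes of small RNA types were left out, 108 of them with a mean of at least 1 scaled FPKM. FPKM were scaled by medians of ratios (factors 0.919 to 1.07), genes under a mean of 1 FPKM were dropped, and log2(FPKM + 1) was fitted with limma 3.58.1 in R 4.3.3, with 4 group means over all 12 libraries, a mean-variance trend and Benjamini-Hochberg adjustment over all genes tested. Against like length, a natural spline (5 degrees of freedom) on log10 length of the longest transcript, from GENCODE M21 on GRCm38, was removed from each library. A gene was alike when the 90% interval lay within 1.5 times. The fits were tested on simulated data.

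Genes were named by rule: the 10 largest differences in each direction with mice that do not overlap, and of each of 39 lists the first 2 members, up to 4 called and up to 3 alike by smallest p, besides Shank2, Gabra2, Nnt, Wdfy1, Ide, Ttr and the Rps3a copies. Outside it, Aqp4, Cry1, Ctss, Dlg4, Dnajb1, Gabrd, Gabrg3, Glul, Grik1, Npy, Per3, Sst, Tsc22d3, Ugt8a, Unc13a, Vamp2 and mt-Co2 were chosen after their values were seen. Some genes that the rule names are not reported here. The comparison, the lists and their members were chosen with earlier results of these data known, so that no list is independent evidence. Alternatives were other pseudocounts, filters, scalings, lengths, bounds and sets of mice.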

Additional observations from a re-analysis of the deposited data

Results flagged for a closer look

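Rps3a1 was the 1 result whose line difference differed between wild types and knockouts by a test of that difference. The knockout difference minus the wild-type difference was -5.27 ± 0.20 on the log2 scale (limma adjusted p = 6.48e-08 over 14061 genes). The exon 6-7 wild type had 2.66, 1.71 and 2.85 scaled FPKM and the exon 6-7 knockouts 105, 113 and 122, while both groups of the exon 7 line lay between 112 and 136. The summed level of Rps3a1, Rps3a2 and Rps3a3 was 227 ± 10.4 in the exon 6-7 wild type and 236 ± 16.2 in its knockouts (SD, n = 3 each). How reads were shared among the copies was not tested.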

How the results depend on the processing

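Of 119 comparisons of counts and library values with an alternative, 114 kept the size of the main value. For a count this meant only that it lay within 1.5 times of the main one, so that sizeable shifts were scored as kept. With length not removed 4835 genes were higher and 4707 lower, against 3384 and 3720 with it removed, and fewer genes were alike. With a pseudocount of 5, 9082 genes were alike against like length, where the main fit gave 6347. With no filter on low values 23865 genes were tested, and 7823 were higher, 5650 lower and 13497 alike against like length. A bound of 2 times made 11160 genes alike. The difference in length slope rose to 2.18 in protein-coding genes alone. Leaving out 1 mouse gave 2821 to 3132 higher, 3183 to 3457 lower and 5671 to 6275 alike genes, and a slope difference of 1.65 to 1.75. The direction of named genes turned in these cases: with length not removed for Dlg4 (0.0318), Gabrg3 (0.67), Grik4 (0.29), Grin2c (0.0524), Meg3 (0.35), Rorb (0.38) and Snap25 (0.0431), with the union of exons for Gad1 (-0.10) and Grm8 (-0.0585), with quantile normalization for Gfap (0.10) and Snap25 (0.13), with GC content removed too for Grin2c (0.05003), and with the principal transcript, an alternative chosen after seeing the data, for Mbp (0.77) and Snap25 (0.32). With quantile normalization 9 of 39 list medians turned, among them excitatory neurons from -0.14 to 0.34 and interneurons from -0.14 to 0.17. The cause was not tested. A term for the 4 libraries that stand apart, 1 in each group, gave 4322 higher, 4558 lower and 7388 alike genes. No paired analysis was possible because no mouse number is shared between the wild types. Without counts, a difference in low genes cannot be set against counting error.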

Other observations

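Besides the classes in the report, unprocessed pseudogenes, copies that arose by duplication of a gene with its introns, were more often higher than lower in the exon 7 wild type against genes of like length: 21 of 32 were higher, 3 lower and 6 alike, with a median difference of 1.04. Of 177 long intergenic noncoding RNAs 57 were higher, 35 lower and 45 alike, with a median of 0.13. The part of low levels in these counts was not tested either. Within the libraries that stand apart, WT628 minus WT778 had the same sign as the whole comparison in 7082 of the 7104 genes called, and in the other 4 mice 7104 had it, which the choice of called genes favours.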
